A study of Hippophae rhamnoides with 3 samples.

Results

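The genes described here build, loosen or cut the plant cell wall. They were taken from the deposited lists of differentially expressed genes of seabuckthorn leaves by the words expansin, xyloglucan, pectin, pectate, polygalacturonase, cellulose, cellulase, extensin, arabinogalactan, proline-rich, hydroxyproline, galacturonosyltransferase, beta-galactosidase, endo-1,4, xylosidase, callose or cell wall in the description of the best hit, leaving out kinases. This gave 45 of the 7713 genes in any of the 3 lists. A gene name is that of the best hit in another species, and for 39 of the 45 genes that hit had an E-value of at most 1e-20. The names filled 9 of the 12 families searched. The words galacturonosyltransferase, xylosidase and callose found no listed gene. A 1,3-beta-glucan synthase, whose name lacks the word callose, was listed and is given with the beta-1,3-glucan genes below. GO terms, which the choice had not used, were read as well. They were assigned by a BLAST-based program and the names are BLAST hits too, so they are not an independent check. The shares over all listed genes were not computed. A GO component was given for 34 genes, and for 18 of these it named the cell wall, the apoplast, the extracellular region or an external encapsulating structure. A GO process was given for 35 genes and its text named the cell wall in 11. Process terms given by number alone, or for an external encapsulating structure, were not counted in these.

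Plantlets of 30 days were kept for 6 hr at 28 °C (control, CON), at 4 °C (cold stress, CS) or at -10 °C (freeze stress, FS), and leaf RNA of each condition was made into 1 DeepSAGE library. DeepSAGE counts tags of 21 bases that start at a CATG site of the transcript. The libraries held 11566379 (CON), 12010122 (CS) and 11908614 (FS) clean tags, totals recovered from the tag numbers and the tags per 1000000 (TPM) in the tables. Each condition was 1 library, so nothing below could be checked against replicates, and the number of plants per library was not given in the sources used here. A list holds the genes past the authors' threshold, which asks for a log2 ratio with a size of 1 or more and a low false discovery rate, so every listed gene had already been called. In the text below, rose and fell are written of listed genes only, FS/CON and the like are ratios of TPM, and intervals are exact (Clopper-Pearson) 95% intervals that cover counting error alone. A gene at 0 tags was put at a limit of 3 tags (0.259 TPM in CON, 0.250 TPM in CS, 0.252 TPM in FS). Its fold is a lower bound given the count seen in the other library, and leaves out the counting error of that count. Tag numbers of all 3 libraries were known for 33 genes, those listed in at least 2 comparisons.

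The wall around a growing leaf cell is a network of cellulose fibrils, tied by xyloglucan and set in pectin. Cells enlarge when this network yields to turgor. Expansins loosen it without cutting it, xyloglucan endotransglucosylase/hydrolases (XTH) cut and rejoin xyloglucan, and pectinesterases, pectate lyases and polygalacturonases alter or cleave pectin. Cellulose synthases make the fibrils, and arabinogalactan and proline-rich proteins are among the proteins that the cell places in or at the wall.

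Most of the cell wall genes listed in the comparison of control with cold stress were lower in CS. In CON vs CS, 29 of them were listed, of which 22 fell (75.9%) and 7 rose (24.1%). Over all 3872 genes of this list, 47.0% fell and 53.0% rose. The genes that fell included all 7 listed genes named expansin, all 4 pectate lyases and polygalacturonases and all 3 arabinogalactan proteins of this list, and those that rose were 5 XTH genes and 2 pectinesterases. The median log2 ratio CS/CON was -1.73 for the cell wall genes and 1.08 for all listed genes. As listed ratios are at least 1 in size, the sign of such a median mainly shows which direction was commoner. The median size, without sign, was 2.38 for the cell wall genes and 1.73 for all listed genes. A log2 ratio of -2 or lower was found in 13 cell wall genes, and in 14.1% of all listed genes. At 2 or above there were 4 cell wall genes, against 25.5% of all listed genes. When a biological coefficient of variation of 0.4 was assumed in edgeR's exact test, 3 of the 29 genes kept an unadjusted p of at most 0.0001, as did 3.62% of the list.

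In CON vs FS, 19 cell wall genes were listed, 13 up and 6 down regulated. The 68.4% that rose stood beside 56.2% of all 4052 listed genes, and the 6 that fell beside 43.8%. Their median log2 ratio FS/CON was 1.85, against 1.18 for all listed genes, and the median size was 1.88, against 1.68. A log2 ratio of 2 or above was found in 8 of them (27.3% of all listed genes) and one of -2 or lower in 0 (9.06%). In CS vs FS, 27 of 32 listed cell wall genes were higher in FS (84.4%) and 5 were lower, where 55.3% of all 3998 listed genes were higher and 44.7% lower. The median log2 ratio FS/CS was 1.95 for the cell wall genes and 1.12 for all listed genes, and the median size was 2.21, against 1.66. There were 15 cell wall genes at 2 or above (21.9% of the list) and 3 at -2 or below (12.1%). CON vs CS and CS vs FS both use the CS library, and CON vs FS shares a library with each, so the 3 comparisons are not independent. With the assumed coefficient of variation of 0.4, 1 cell wall gene passed in CON vs FS (2.32% of that list) and 1 in CS vs FS (0.800%).

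**Figure D1:**
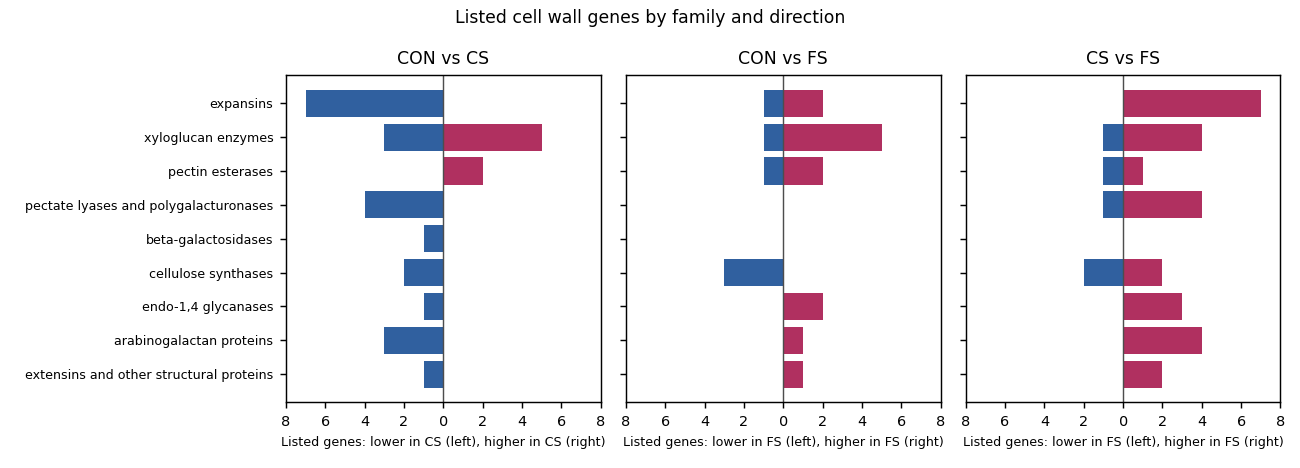
Number of listed cell wall genes (horizontal axis) of each family that were lower (blue, left) or higher (red, right) in the second library of each comparison. In CON vs CS 22 genes are on the left and 7 on the right, and in CS vs FS 5 on the left and 27 on the right.

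Among the 33 cell wall genes with 3 known values, 20 were lowest in CS, 7 lowest in CON and 5 lowest in FS, and 1 was at 0 tags in both CON and CS. Of the 3960 genes of any kind with 3 known values, 32.4% were lowest in CS, 38.9% in CON and 27.4% in FS. In 15 of the 33 genes (45.5%), CS was below both CON and FS with both intervals off 0, which held for 19.9% of the 3960 genes. The highest value was in FS for 16 of the 33 genes (36.3% of the 3960), in CON for 12 (29.6%) and in CS for 5 (34.1%). When TMM factors of edgeR, computed from the 3960 genes (all listed in at least 2 comparisons), were used for scaling, they shifted every log2 ratio CS/CON by -0.29, FS/CON by -0.33 and FS/CS by -0.04. TMM takes most genes it uses as unchanged, but these had all been called changed. This scaling is thus an alternative here, not a correction. Both tag numbers were known for 16 cell wall genes that were not listed in CON vs FS, and so were chosen for a small difference. The interval of FS/CON included 0 on the log2 scale in 10 of them (62.5%), and in 61.3% of the 1182 such genes of any kind. It lay above 0 in 4 and below 0 in 2 of the 16, but under TMM scaling above 0 in 0 and below 0 in 4. Of the 1182 genes, 20.8% lay above and 17.9% below 0, and under TMM scaling 8.04% and 37.1%, so the shift was general. The cell wall genes that were above 0 were Unigene13273_All, Unigene65677_All, Unigene9851_All and Unigene5138_All, and those below 0 under TMM scaling alone were Unigene51655_All and Unigene43155_All. As these are bulk leaf samples, fewer cells of a type and less RNA per cell cannot be told apart.

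**Figure D2:**
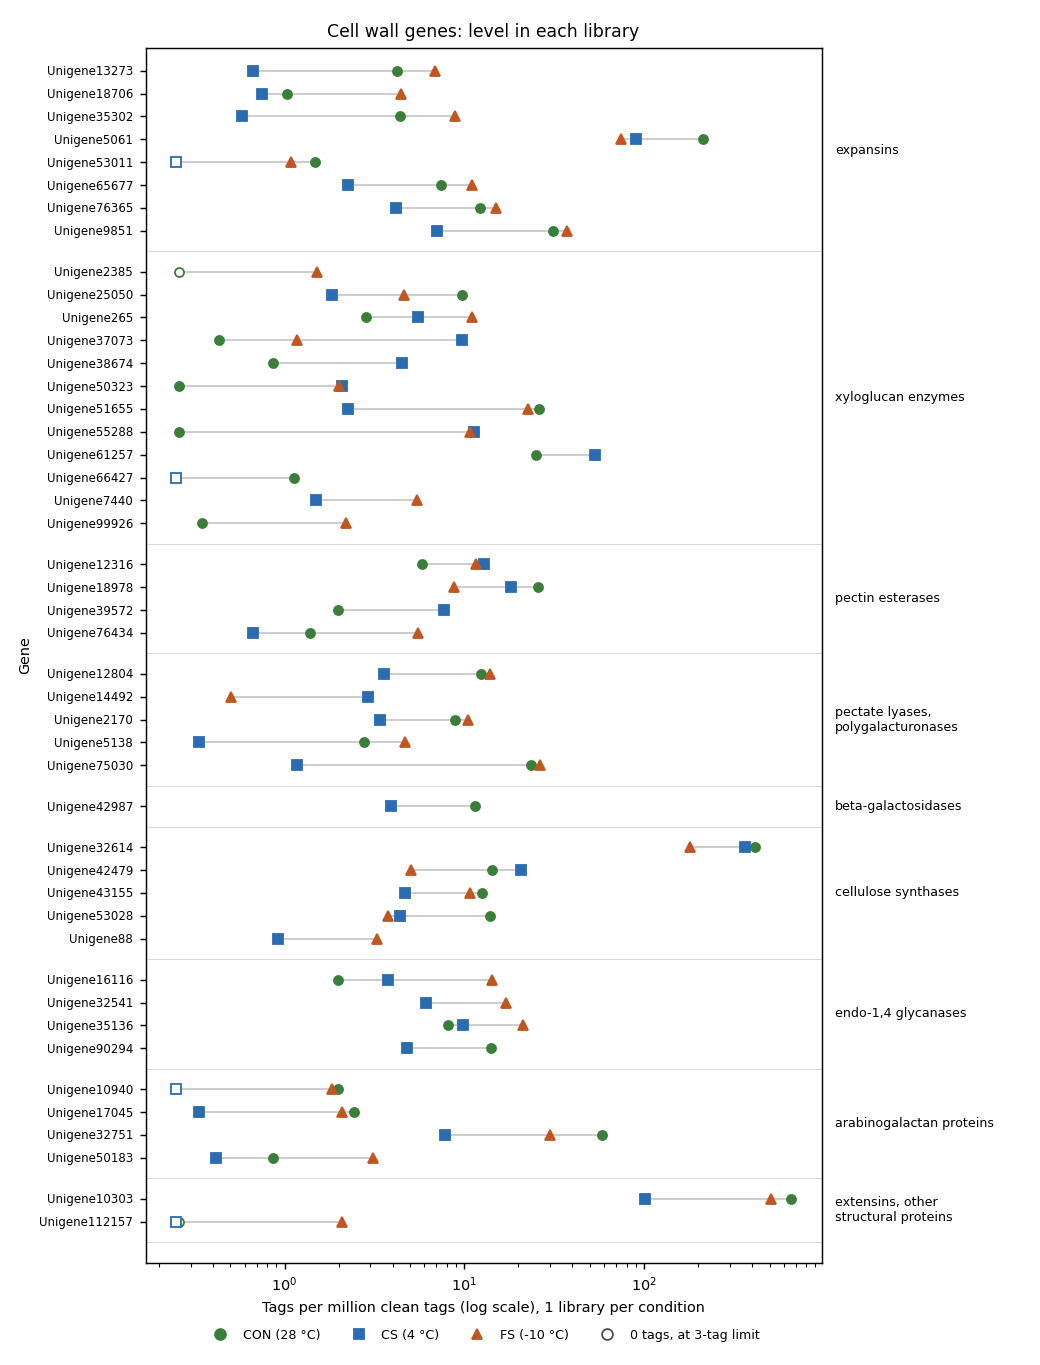
TPM (log axis) of the 45 cell wall genes in CON (green circles), CS (blue squares) and FS (orange triangles), grouped by family. Open symbols are genes at 0 tags, drawn at the limit of 3 tags, and a missing symbol is a library whose value was not known. The blue square is the leftmost symbol in 20 of the 33 genes with 3 values, not counting Unigene112157_All, which was at 0 tags in both CON and CS.

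Leaf marker genes listed in CON vs CS were also mostly lower in CS. Of the 7 listed mesophyll markers (small subunit of Rubisco and light-harvesting chlorophyll proteins), 4 fell and 1 rose in CON vs CS, 1 fell in CON vs FS, and 4 rose and 2 fell in CS vs FS. For these and the pollen and xylem genes below, the share of all listed genes that rose was 53.0%, 56.2% and 55.3% in this order. Over the 5 of them known in all libraries, the levels summed to 2586 (CON), 842 (CS) and 2223 (FS) TPM, and 0 of the 5 were at 0 tags. Most of this sum came from Unigene113799_All, with 21499, 7549 and 19779 tags, and Unigene27359_All, with 7492, 1353 and 6206. Unigene96011_All went the other way, with 49, 435 and 56 tags. Unigene116240_All, with 697, 725 and 327 tags, was not listed in CON vs CS. The part of the mesophyll markers in the changes of the cell wall genes was not tested. The word pollen found 4 genes, of which CON vs CS listed 4, all up, CON vs FS 3, all up, and CS vs FS 2, both down. Of these, 3 were named for the rice allergen Ory s 1, of a group that belongs to the beta-expansins, and 1 for a profilin. Of 2 genes named for a xylem proteinase, 1 rose and 1 fell in CS vs FS, and no root marker was listed.

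Expansins, the proteins that let the wall creep at acid pH, were 8 in number by that name. All 7 listed in CON vs CS fell and all 7 listed in CS vs FS were higher in FS. The Ory s 1 genes given above are not among these, and all of them rose in CON vs CS. Tags of 6 of the genes named expansin are shown because 3 of them come from near-identical sequence. CATG is in capitals, and each sequence is the sense tag nearest the 3′ end of its gene.
Unigene35302_All, alpha-expansin: CATGtcaaggaactgggggca
Unigene65677_All, expansin: CATGtcaagaaactggggtca
Unigene76365_All, expansin 1: CATGtctagaaactggggtca
Unigene13273_All, ripening-related expansin: CATGccgaaagctgggtggga
Unigene9851_All, expansin 2: CATGatgaatgaatccacttt
Unigene5061_All, alpha expansin protein 4: CATGtcaaagcaattttcgtt
Counted from 1 at the 5′ end, the tag of Unigene65677_All differs from that of Unigene76365_All by A7T alone, and that of Unigene35302_All differs from that of Unigene65677_All by G10A and G19T. The methods allowed 1 mismatch in the matching of tags. The tag shown, which matched without a mismatch, made up 100% of the count of Unigene65677_All in each library. For Unigene76365_All it made up 95.1% (CON), 100% (CS) and 97.8% (FS). Tags matched with a mismatch were thus at most few in these counts. With 1 base between the tags shown, an error in their division between these genes was not tested.

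The alpha-expansin Unigene35302_All, with a hit in Ziziphus jujuba, had 51 (CON), 7 (CS) and 106 (FS) tags. It fell in CS (log2 ratio -2.92, interval -4.30 to -1.77), rose in FS (1.01, interval 0.52 to 1.52) and was also listed in CS vs FS (3.93, interval 2.84 to 5.28). It was the only cell wall gene listed on opposite sides of CON, but under TMM scaling its log2 ratio FS/CON was 0.69, below the threshold. Unigene9851_All (expansin 2) had 360 (CON), 85 (CS) and 442 (FS) tags, a fall of CS/CON with a log2 ratio of -2.14 (interval -2.50 to -1.79). Its FS level was 1.19-fold that of CON, a log2 ratio of 0.25 (interval 0.05 to 0.46), and was not listed. The ripening-related expansin Unigene13273_All had 49, 8 and 82 tags in the order CON, CS, FS. CS was again the low library, with log2 ratios of -2.67 for CS/CON (interval -3.96 to -1.58) and 3.37 for FS/CS (interval 2.32 to 4.63).

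For Unigene65677_All there were 86, 27 and 132 tags in CON, CS and FS, and for Unigene76365_All 142, 50 and 178 tags. These genes, whose tags differ at 1 base, had the same order of levels, with log2 ratios CS/CON of -1.73 (interval -2.41 to -1.09) and -1.56 (interval -2.06 to -1.09). The interval of FS/CON for Unigene76365_All, -0.04 to 0.61, included 0. Unigene53011_All, alpha-expansin 4 by its hit in Ricinus communis, had 17 (CON), 0 (CS) and 13 (FS) tags. Its CS level was thus at least 5.88-fold lower than that of CON, and the log2 ratio FS/CON was -0.43 with an interval, -1.59 to 0.70, that included 0. Unigene18706_All (alpha-expansin 6) had 12, 9 and 53 tags in the same order. Here FS was high and the interval of CS/CON, -1.90 to 0.90, included 0. The log2 ratio FS/CON was 2.10 (interval 1.18 to 3.14).

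The expansin with the most tags was low in both stress libraries. Unigene5061_All (alpha expansin protein 4) had 2463 (CON), 1079 (CS) and 884 (FS) tags, with log2 ratios of -1.25 for CS/CON (interval -1.35 to -1.14) and -1.52 for FS/CON (interval -1.63 to -1.41). CS and FS both lay below CON, and FS lay slightly below CS (log2 ratio FS/CS -0.28, interval -0.41 to -0.15), a difference that was not listed.

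Xyloglucan enzymes were the largest family, with 12 genes, and the only family with listed genes in both directions in CON vs CS. In CON vs CS 5 rose and 3 fell, in CON vs FS 5 rose and 1 fell, and in CS vs FS 4 rose and 1 fell. The tags of 4 genes are shown as examples of a rise in both stresses, a rise in CS, a fall in CS and a gene whose single tag went against its total.
Unigene55288_All, XTH 3: CATGttatctgaaaatcttgg
Unigene37073_All, XTH 7: CATGgtttggaccttcagatg
Unigene51655_All, xyloglucan endotransglucosylase: CATGtttgttcatagttatgc
Unigene61257_All, putative XTH: CATGtatcaaatatgtacaaa

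Unigene55288_All, an XTH 3 by its hit in Cucumis melo, had 3 (CON), 136 (CS) and 128 (FS) tags. Both stress libraries were far above CON, with log2 ratios of 5.45 (interval 3.87 to 7.74) for CS/CON and 5.37 (interval 3.79 to 7.67) for FS/CON, and the interval of FS/CS, -0.43 to 0.28, included 0. Among the cell wall genes with tags in both libraries, this was the largest rise in each comparison with CON. Unigene50323_All, an XTH by its hit in Rosa, rose in the same way from 3 tags in CON to 25 in CS and 24 in FS, with log2 ratios of 3.00 (interval 1.29 to 5.38) and 2.96 (interval 1.24 to 5.33). Unigene37073_All (XTH 7) was high in CS alone, with 5 (CON), 116 (CS) and 14 (FS) tags. Its log2 ratio was 4.48 for CS/CON (interval 3.22 to 6.13) and -3.04 for FS/CS (interval -3.95 to -2.23), and the interval of FS/CON, -0.11 to 3.27, included 0.

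Against these, Unigene51655_All, named for a xyloglucan endotransglucosylase of Pisum sativum, had 302 (CON), 27 (CS) and 268 (FS) tags. The fall in CS was the second largest of all cell wall genes without a 0 (log2 ratio -3.54, interval -4.16 to -2.97), and the interval of FS/CON, -0.46 to 0.03, included 0. Unigene25050_All, an XTH protein A by its hit, had 113, 22 and 55 tags and was listed in all 3 comparisons, with log2 ratios of -2.42 for CS/CON, -1.08 for FS/CON and 1.33 for FS/CS. CON was high, FS intermediate and CS low, and no interval of a pair included 0. Unigene66427_All, whose hit had an E-value of 1.32e-16, went from 13 (CON) to 0 (CS) tags, at least 4.50-fold lower.

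XTH-38 of Populus was the hit of Unigene265_All, which had 33 (CON), 66 (CS) and 131 (FS) tags. FS was the highest and CON the lowest, and FS was listed against both other libraries (log2 ratio FS/CON 1.95, interval 1.39 to 2.54). Its log2 ratio FS/CS was 1.00, and 0.96 under TMM scaling. For the remaining XTH genes 2 libraries were known. Unigene38674_All (XTH 13) rose from 10 (CON) to 54 (CS) tags, Unigene99926_All (XTH 2) from 4 in CON to 26 in FS, Unigene2385_All (XTH 6) from 0 in CON to 18 in FS, at least 5.83-fold, and Unigene7440_All from 18 in CS to 65 in FS. Unigene61257_All, the XTH with the most tags, rose from 291 in CON to 639 in CS (log2 ratio 1.08, interval 0.88 to 1.29, and 0.79 under TMM scaling, below the threshold). Its only listed sense tag, however, fell from 220 in CON to 84 in CS and 42 in FS, and made up 75.6% of the tags of the gene in CON but 13.1% in CS. The other tags in its count were not among the listed tags, which match without a mismatch, so the direction of this gene rests on tags that were not analysed here.

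Pectin esterases, which remove methyl or acetyl groups from pectin, numbered 4. Unigene12316_All, a pectinesterase, had 67 (CON), 154 (CS) and 138 (FS) tags and rose in both stresses, with log2 ratios of 1.15 (interval 0.72 to 1.58) and 1.00 (interval 0.57 to 1.44). Under TMM scaling these were 0.86 and 0.67, both below the threshold. The interval of FS/CS, -0.49 to 0.19, included 0. Unigene39572_All, also a pectinesterase, rose from 23 (CON) to 93 (CS) tags (log2 ratio 1.96, interval 1.29 to 2.69), and its listed sense tag went from 15 to 61 and had 14 tags in FS. Pectinesterase-3 (Unigene76434_All) was high in FS, with 16, 8 and 66 tags in CON, CS and FS and a log2 ratio FS/CON of 2.00 (interval 1.20 to 2.89). The pectin acetylesterase Unigene18978_All, with a weak hit (E-value 2.12e-11), fell in FS, with 298, 218 and 105 tags and a log2 ratio FS/CON of -1.55 (interval -1.88 to -1.22).

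Pectate lyases and polygalacturonases cleave the pectin backbone. Of the 5 genes, all 4 listed in CON vs CS fell, and the same 4 had FS levels within 1.70-fold of CON. The tags of the genes with the deepest falls are shown.
Unigene75030_All, polygalacturonase: CATGatttcccaaccctgtcc
Unigene5138_All, pectate lyase: CATGtagtcaacaatgactat
Unigene75030_All had 273 (CON), 14 (CS) and 316 (FS) tags. CS was 20.2-fold below CON (log2 ratio -4.34, interval -5.23 to -3.57), the largest fall in CS among the cell wall genes with tags in both libraries, and FS/CON was 0.17 (interval -0.07 to 0.41). Its hit, a polygalacturonase of Pisum sativum, had an E-value of 7.95e-14, so the name is less certain than most. A listed tag of another gene, Unigene67266_All, differs from its tag at 1 base, and an error in the division of tags between these genes was not tested. The tag of Unigene75030_All, matched without a mismatch, made up 99.3% (CON), 100% (CS) and 100% (FS) of its count. Unigene5138_All had 32, 4 and 56 tags, and Unigene12804_All, which shares its best hit (a pectate lyase of Glycine max), had 143, 43 and 165 tags. Both were low in CS, with log2 ratios CS/CON of -3.05 (interval -5.01 to -1.56) and -1.79 (interval -2.32 to -1.29). The polygalacturonases Unigene2170_All and Unigene14492_All share a best hit in Ricinus communis as well, but went opposite ways between CS and FS. The former had 103 (CON), 41 (CS) and 125 (FS) tags, and the latter fell from 35 (CS) to 6 (FS) tags (log2 ratio -2.53, interval -4.07 to -1.27). A beta-galactosidase, an enzyme that trims galactose from wall polymers, fell from 132 (CON) to 47 (CS) tags (Unigene42987_All, log2 ratio -1.54, interval -2.06 to -1.05).

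**Figure D3:**
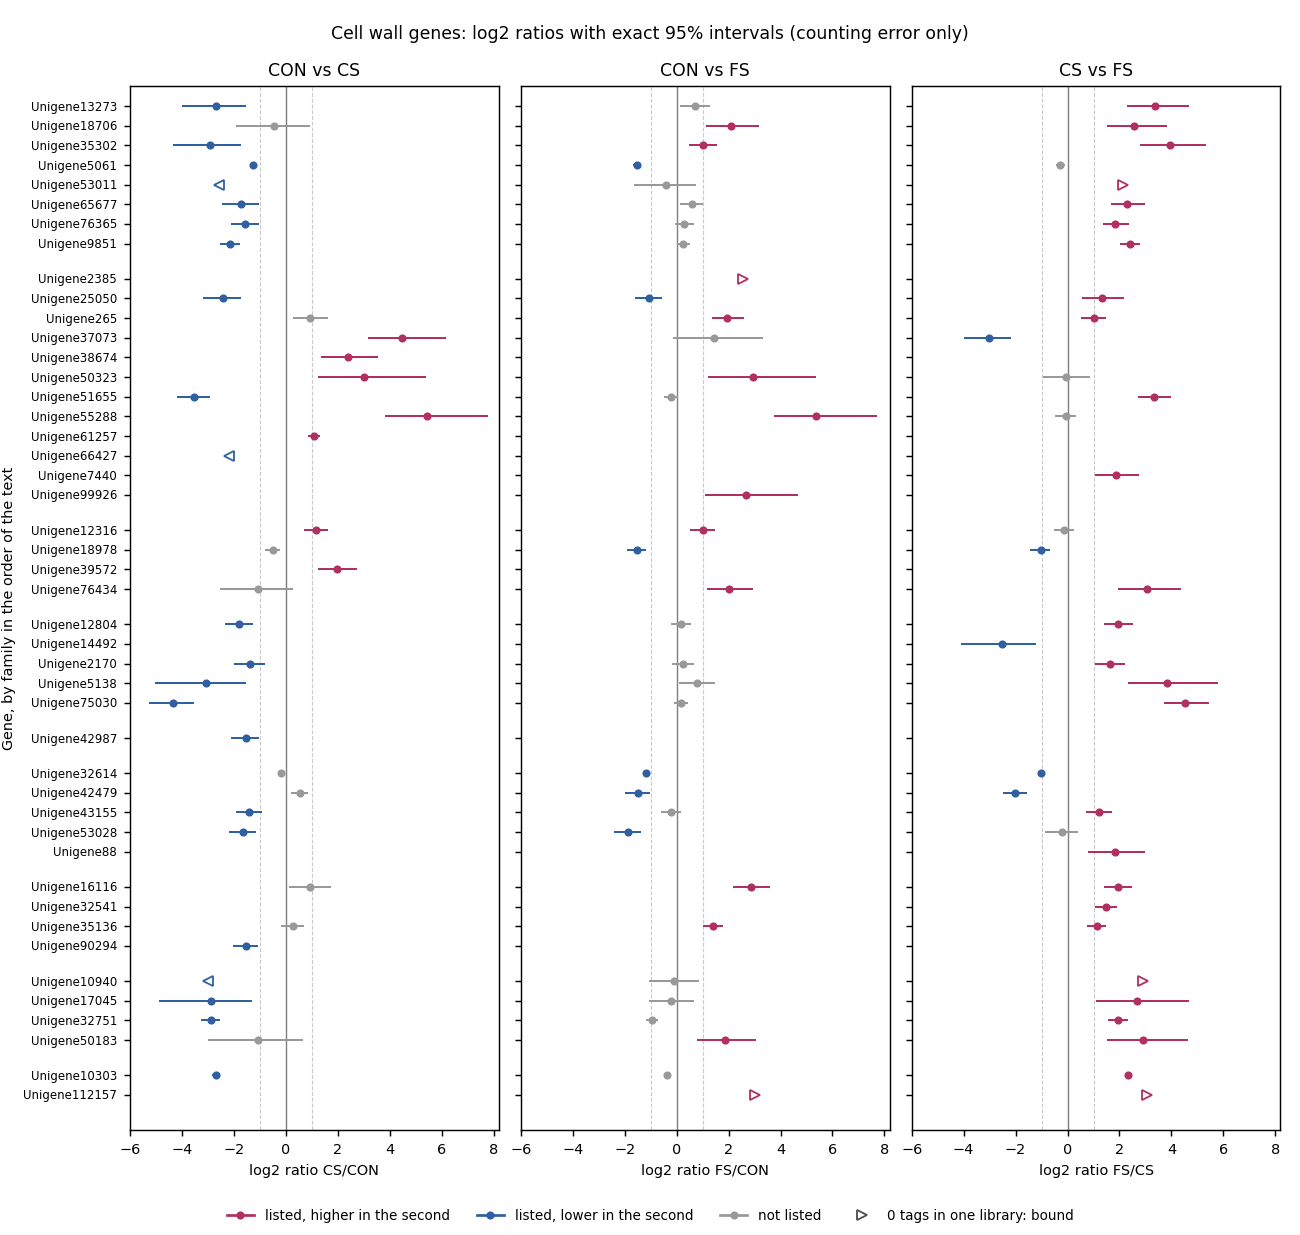
Log2 ratios (horizontal axis) of the 45 cell wall genes in the 3 comparisons, with exact 95% intervals. Red and blue are listed genes, grey are pairs that were not listed, open triangles are lower bounds against 0 tags, and dashed lines mark a log2 ratio of 1 in size. In CON vs CS the lowest point is Unigene75030_All at -4.34 and the highest Unigene55288_All at 5.45.

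Cellulose synthases and the related synthase-like enzymes numbered 5. Unigene43155_All, a cellulose synthase by its hit, had 145 (CON), 56 (CS) and 128 (FS) tags, low in CS (log2 ratio -1.43, interval -1.90 to -0.97) and with an interval of FS/CON, -0.58 to 0.13, that included 0. Unigene53028_All (cellulose synthase 3) had 161, 53 and 45 tags and fell in both stresses, with log2 ratios of -1.66 (interval -2.13 to -1.20) and -1.88 (interval -2.39 to -1.40). The interval of FS/CS for this gene, -0.83 to 0.38, included 0. A catalytic subunit 3 (Unigene88_All), which in Arabidopsis thaliana makes primary wall cellulose, rose from 11 (CS) to 39 (FS) tags.

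The synthase-like genes fell in FS and were not listed in CON vs CS. Unigene32614_All (CslE) had 4803 (CON), 4384 (CS) and 2161 (FS) tags, with a log2 ratio FS/CON of -1.19 (interval -1.27 to -1.12). Unigene42479_All, named for a synthase-like C1 protein by a weak hit (E-value 1.59e-08), had 164, 247 and 60 tags and a log2 ratio FS/CON of -1.49 (interval -1.94 to -1.06). In both genes FS was the low library, and in the second CS was the high one (log2 ratio CS/CON 0.54, interval 0.25 to 0.83), although this was not listed. In CON vs FS, 3 of the 6 cell wall genes that fell were of this family.

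Endo-1,4 glycanases cut the glucan, mannan or xylan chains of the wall. Of the 4, the 3 with a known FS value were higher in FS than in CS. Unigene16116_All, an endo-1,4-beta-mannosidase, had 23 (CON), 45 (CS) and 170 (FS) tags (log2 ratio FS/CON 2.84, interval 2.21 to 3.54). A further mannosidase, Unigene32541_All, rose from 74 (CS) to 203 (FS) tags, and the endo-1,4-beta-xylanase Unigene35136_All had 94, 118 and 254 tags (log2 ratio FS/CON 1.39, interval 1.05 to 1.75). For the xylanase the interval of CS/CON, -0.13 to 0.68, included 0. Its listed sense tag, however, had 18 (CON), 60 (CS) and 119 (FS) tags, a log2 ratio CS/CON of 1.68. That tag made up 19.1% of the tags of the gene in CON and 50.8% in CS. The endo-1,4-beta-glucanase Unigene90294_All fell from 162 (CON) to 58 (CS) tags (log2 ratio -1.54, interval -1.99 to -1.10), and its FS value was not known.

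Arabinogalactan proteins, heavily glycosylated proteins of the wall and the cell surface, were 4, and all 4 were higher in FS than in CS. Fasciclin-like arabinogalactan protein 19 (Unigene32751_All) had 672 (CON), 94 (CS) and 358 (FS) tags, with a log2 ratio CS/CON of -2.89 (interval -3.22 to -2.58). FS lay between the others, with a log2 ratio FS/CON of -0.95 (interval -1.14 to -0.76) that did not reach the threshold. Protein 15 of the same group (Unigene10940_All) had 23, 0 and 22 tags, at least 7.96-fold lower in CS than in CON, and the FLA20-like Unigene17045_All had 28, 4 and 25 tags. In both the interval of FS/CON included 0, at -1.02 to 0.80 and -1.04 to 0.63. Unigene50183_All, an arabinogalactan protein by a hit with an E-value of 2.69e-14, had 10, 5 and 37 tags, with FS high (log2 ratio FS/CON 1.85, interval 0.81 to 3.02).

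The structural proteins held the cell wall gene with the most tags. Unigene10303_All, a putative proline-rich cell wall protein of Prunus dulcis by a hit with an E-value of 7.77e-12, had 7601 (CON), 1215 (CS) and 6068 (FS) tags. It was low in CS (log2 ratio -2.70, interval -2.79 to -2.61) and a little below CON in FS (log2 ratio -0.37, interval -0.42 to -0.32), the latter not listed. Its main sense tag and the antisense tag nearest the 3′ end, shown for the comparison of strands that follows, had the same order of libraries.
Unigene10303_All, sense: CATGccttttgctctgagcag
Unigene10303_All, antisense: CATGctcgtcaactagcattt
The sense tag was counted 7077 times in CON, 1155 in CS and 5668 in FS, and the antisense tag 308, 40 and 231 times. The other structural gene, Unigene112157_All, a structural constituent of the cell wall by its hit, had 0 tags in CON and CS and 25 in FS, at least 8.09-fold higher in FS than in CON.

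Antisense tags come from the strand opposite to the gene and are not part of the gene counts. Among the listed tags, 55 matched a cell wall gene, each of them a single gene, 40 in the sense and 15 in the antisense direction, and 33 of the sense tags lay at the CATG nearest the 3′ end. Listed tags were found for 41 of the 45 genes and antisense tags for 12. Unigene5061_All, Unigene25050_All and Unigene10303_All had 2 antisense tags each, so the antisense tags counted below are not all of separate genes. In CON vs CS 10 of 11 antisense tags fell, where 47.1% of all 3658 listed antisense tags fell, and in CS vs FS 9 of 9 rose, against 46.8% of 3900. In CON vs FS 3 rose and 4 fell (47.7% and 52.3% of 3953). The antisense tag of pectinesterase-3 (Unigene76434_All) had 147 (CON), 25 (CS) and 114 (FS) tags, while its listed sense tag had 14, 0 and 39. Both were lowest in CS, but sense was highest in FS and antisense in CON. For the arabinogalactan protein gene Unigene50183_All the antisense tag went from 121 in CON to 50 in CS and 52 in FS, while the gene rose in FS. The XTH Unigene25050_All had 2 antisense tags, with 189 (CON), 35 (CS) and 50 (FS) counts and with 144, 17 and 98, both lowest in CS like the gene. Of the sense tags, 26 of 29 moved the way of their listed gene in CON vs CS, 1 moved against it (that of Unigene61257_All) and 2 belonged to genes not listed there. Sense tags are part of the gene counts, so this match was largely fixed in advance and is no separate evidence.

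**Figure D4:**
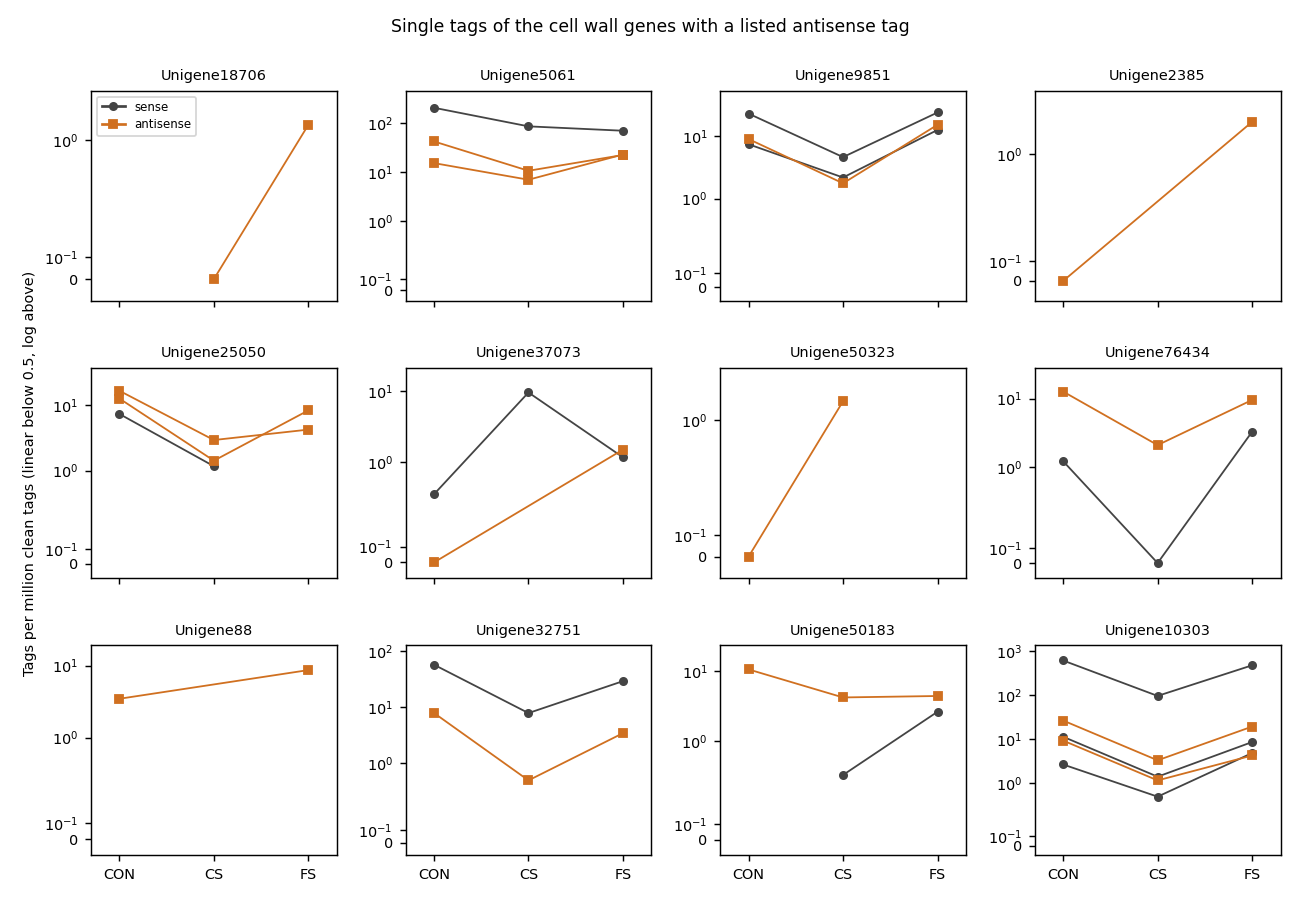
Single listed tags of the 12 cell wall genes with an antisense tag, in TPM (linear below 0.5, logarithmic above) in CON, CS and FS. Grey circles are sense and orange squares antisense tags, a line joins the values of 1 tag, and libraries without a known value are skipped. In Unigene10303_All, Unigene9851_All and Unigene32751_All both strands are lowest in CS.

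Genes named for nucleotide sugars or for beta-1,3-glucan, the polymer of callose, were searched by separate words. The nucleotide sugar words also took in Unigene32470_All, named for a rhamnosyltransferase, which uses UDP-rhamnose rather than supplying it. It had 183 (CON), 63 (CS) and 1116 (FS) tags. Of the nucleotide sugar genes, 3 rose and 3 fell in CON vs CS, 6 rose and 1 fell in CON vs FS, and 6 rose and 2 fell in CS vs FS. For these and the beta-1,3-glucan genes below, the share of all listed genes that rose was 53.0%, 56.2% and 55.3% in the same order. A rhamnose synthase (Unigene11815_All), which makes a sugar of pectin, had 187 (CON), 66 (CS) and 188 (FS) tags, and CS was the low library. The 3 that rose from CON to CS were Unigene17220_All (37 to 128 tags), Unigene28247_All (13 to 43 tags) and Unigene76641_All (88 to 230 tags). Of the beta-1,3-glucan genes, 2 rose and 4 fell in CON vs CS, 2 rose and 3 fell in CON vs FS, and 2 of 2 fell in CS vs FS. Those that rose in CON vs CS were a glucan endo-1,3-beta-glucosidase (Unigene35675_All), with 7, 174 and 23 tags in CON, CS and FS, and a beta-1,3-glucanase (Unigene32570_All), with 2, 24 and 24 tags. Those that rose in CON vs FS were Unigene32570_All and a 1,3-beta-glucan synthase (Unigene19303_All). The synthase had 15 (CON) and 45 (FS) tags, with a log2 ratio FS/CON of 1.54 (interval 0.67 to 2.49).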

How the data were processed

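Leaf RNA of 1 library each for CON, CS and FS was measured by DeepSAGE. The authors removed adaptors, empty, low-quality and wrong-length reads and tags with fewer than 2 copies, and matched tags to reference genes with at most 1 mismatch, dropping those of several genes. Per the labels, the processing notes name Bowtie 0.12.3. Deposited counts give the clean tags of a gene or of a single tag sequence. TPM, as deposited, divides them by the clean tags of the library, per 1000000, and has 0.01 in place of 0. The deposited log2 ratios, P-values and FDR were not used here, except that a gene is listed only past the authors' threshold.

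Library totals were those at which every count gives its deposited TPM after rounding, which fixed each total to within 1 tag. Log2 ratios of TPM and exact 95% intervals from the binomial split of a gene's tags were computed, which compare libraries, not conditions. Tags were not marked with molecular identifiers, so counting error alone is covered by the intervals and by the 3-tag limit. The interval was tested on simulated data. The members, families and word lists were chosen with earlier results of these data known. Genes were named by a rule: for each family, the largest listed rise and fall in each comparison where the lower library had 10 tags or more, the gene with the most tags of each family, genes listed in 3 comparisons, and genes at 0 tags in 1 library and at least 30 in another. It took 25 genes. The other 20 are named so that every gene is accounted for. Alternatives were TMM scaling, filters on tags, zeros, E-values and fold, shared hits, fewer words, and an exact test of edgeR in which the coefficient of variation was assumed. No genome was used, so positions are not given. The TMM factors and exact test came from edgeR 4.0.16 under R 4.3.3. All else was computed in Python 3.11.15 (scipy 1.17.1 for intervals, pandas 2.3.3 and numpy 2.4.6 for tables, matplotlib 3.10.9 for plots).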

Additional observations from a re-analysis of the deposited data

Results flagged for a closer look

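The alpha-expansin Unigene35302_All was set apart because it lay on opposite sides of CON in the stress libraries. Its log2 ratio was -2.92 for CS/CON and 1.01 for FS/CON, with 51 (CON), 7 (CS) and 106 (FS) tags. Under TMM scaling, with factors from listed genes alone, the ratio FS/CON was 0.69, below the threshold of 1, so that the rise in FS was no longer called. With 1 library per condition this difference was not tested beyond counting error.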

How the results depend on the processing

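No result had a replicate, so all calls below rest on single libraries, and depth limits the genes at few tags. No paired analysis was possible because the groups share a single library number each and no result comes from a replicated test. Nor could a replicate be left out, with 1 library in each group. A stricter fold, log2 2 or more in either direction, left 4 genes up and 13 down in CON vs CS, 8 up and 0 down in CON vs FS, and 15 up and 3 down in CS vs FS. When edgeR's exact test assumed a coefficient of variation of 0.4, 2 up (Unigene55288_All and Unigene37073_All) and 1 down (Unigene75030_All) passed in CON vs CS, 1 up (Unigene55288_All) and 0 down in CON vs FS, and 1 up (Unigene75030_All) and 0 down in CS vs FS. Keeping only E-values up to 1e-20 left 3 of 5 genes lower in FS in CS vs FS. TMM scaling, at least 30 tags, no genes at 0 tags, fewer words and shared hits kept all 6 counts within 1.5 times, as E-values did for the other 5. Under TMM scaling 5 of the 80 listed ratios went below 1: CS/CON of Unigene61257_All (0.79) and Unigene12316_All (0.86), FS/CON of Unigene35302_All (0.69) and Unigene12316_All (0.67), and FS/CS of Unigene265_All (0.96). As each comparison moves by 1 constant, no listed ratio could change sign. The number of genes lowest in CS, 20, lay between 15 and 21 under 5 alternatives chosen after the data were seen, as was TMM scaling of the FS/CON intervals of unlisted genes.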

Other observations

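Some expansin relatives carry names that the words used here do not find. Ory s 1 is a pollen allergen of rice, and group 1 allergens of grass pollen are beta-expansins. Listed genes with this allergen as the name of their best hit, all in Ricinus communis, were found by the word pollen and were named after their values were seen. Unigene61801_All (E-value 1.25e-99) had 66 (CON), 2093 (CS) and 473 (FS) tags, with log2 ratios of 4.93 for CS/CON (interval 4.58 to 5.31) and 2.80 for FS/CON (interval 2.43 to 3.19). Unigene76069_All had 405, 1204 and 1579 tags, with log2 ratios of 1.52 (interval 1.35 to 1.68) and 1.92 (interval 1.76 to 2.08). Unigene73607_All had 2, 23 and 22 tags, with intervals of 1.45 to 6.60 for CS/CON and 1.39 to 6.55 for FS/CON. All 3 were above CON in both stress libraries, whereas the 7 listed genes named expansin all fell in CS.

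Unigene35218_All, named for a mannan synthase by a weak hit (E-value 2.15e-11), an enzyme of the polymer that mannosidases cut, had 61 (CON), 5 (CS) and 30 (FS) tags, and its log2 ratio CS/CON was -3.66. Among the beta-1,3-glucanase genes, Unigene115439_All had 98, 3 and 21 tags in the same order. CS was the lowest library in both.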
